A study of Mus musculus with 8 samples.

Results

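The 35 genes described here are 32 marker genes of microglia and 3 genes for ligands that act on them. They were taken by gene symbol from a fixed list, chosen with earlier results of these data known. Each was read from the brightest, by mean, of the probe sets that carry its symbol alone. All 35 had such a probe set, among 18193 genes with one in all. The measurements came from the striatum of 4 R6/2 mice and 4 wild-type mice, all female, 12 weeks (85 days) old and of mixed C57Bl/6 and CBA strain, with 1 array per animal. R6/2 is a model of Huntington's disease: its transgene holds exon 1 of human HTT with an expanded CAG repeat, under the human HTT promoter rather than a microglial one. The design text counts 5 wild-type mice, of which 4 were analysed here. The design compares striatal transcripts of the 2 genotypes at this age.

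Microglia are the resident macrophages of the brain. They depend on the CSF1 receptor, which binds the cytokines CSF1 and IL-34, and they carry the receptor for fractalkine, a chemokine that neurons display on their surface. In healthy tissue they express purinergic and other surveillance receptors, complement C1q and the adaptor DAP12, and in several neurodegenerative conditions they lower some of these genes and raise lysosomal and antigen-presenting ones. Of the 35 genes, Il34 and Cx3cl1 are made in the brain mainly by neurons and Csf1 by several cell types. The other 32 are expressed mainly by microglia or by macrophages and leukocytes in general.

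The master regulator of macrophage genes, PU.1, is the product of the member Spi1 and binds DNA around the letters GAGGAA. The RefSeq promoter table (GRCm38.p6) matched 25 of the 35 genes, and the 250 bases before each annotated start were searched for GAGGAA on both strands (TTCCTC on the other). The letters were present for 14 of the 25 members, or 56%, against 25.9% of all 27025 genes in the table; by window, 15 of 28 member windows held them against 23.3% of all 32851. The longer GAGGAAGT, which contains it, was found for 1 of the 25 (C1qc) against 2.79% of genes. A match describes the letters of the window and nothing about binding, and these letters were chosen after several motifs had been searched. The windows of 4 members are printed because the results turn on them: Cx3cl1 (chr8:94771930-94772179, plus strand), the member that passed the test; its receptor gene Cx3cr1 (chr9:120068297-120068546, minus strand); and Fcrls (chr3:87263525-87263774, minus strand) and Ctss (chr3:95526536-95526785, plus strand), which came closest to passing. Each is read in the direction of the gene, 5′ to 3′, with GAGGAA or TTCCTC in capitals.
Cx3cl1: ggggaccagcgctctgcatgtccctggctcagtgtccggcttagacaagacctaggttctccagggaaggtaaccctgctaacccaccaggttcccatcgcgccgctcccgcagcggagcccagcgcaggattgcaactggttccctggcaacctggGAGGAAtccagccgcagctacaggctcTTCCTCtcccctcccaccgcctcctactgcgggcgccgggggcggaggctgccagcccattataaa
Cx3cr1: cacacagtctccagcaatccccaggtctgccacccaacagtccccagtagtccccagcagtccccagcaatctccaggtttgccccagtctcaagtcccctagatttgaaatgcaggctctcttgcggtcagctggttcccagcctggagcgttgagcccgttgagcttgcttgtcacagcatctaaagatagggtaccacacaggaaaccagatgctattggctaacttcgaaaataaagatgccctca
Fcrls: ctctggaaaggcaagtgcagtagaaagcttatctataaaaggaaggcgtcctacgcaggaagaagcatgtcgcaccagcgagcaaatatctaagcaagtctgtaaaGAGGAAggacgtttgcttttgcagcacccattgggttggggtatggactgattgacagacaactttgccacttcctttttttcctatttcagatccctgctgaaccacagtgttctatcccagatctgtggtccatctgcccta
Ctss: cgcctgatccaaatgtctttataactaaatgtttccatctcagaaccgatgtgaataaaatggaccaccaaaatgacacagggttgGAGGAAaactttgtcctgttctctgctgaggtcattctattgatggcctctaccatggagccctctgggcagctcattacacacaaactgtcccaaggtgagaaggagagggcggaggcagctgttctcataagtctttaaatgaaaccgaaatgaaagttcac
The window of Cx3cl1 held a match on each strand, those of Fcrls and Ctss held 1 each, and that of Cx3cr1 held none.

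Values are log2 expression on a scale shared by all arrays, and with 4 arrays per genotype the precision of every difference is limited. Array medians lay between 5.08 and 5.13, and pairs of arrays correlated at 0.983 to 0.994. Wild-type mouse 42 stood apart in the ratio of 3′ to 5′ signal, a sign of RNA quality: its 3′ probe set for actin exceeded the 5′ one by 2.40, against 1.37 to 1.58 on the other 7 arrays. The C1q genes and Aif1 are given below without it as well. Without it the differences of P2ry12, Tyrobp and Ly86 were -0.12, -0.100 and -0.018, against 0.028, -0.031 and 0.069 with all arrays. Among wild-type mice it held the lowest value for 11 of the 32 marker genes and the highest for 9. Over all genes it held these places for 26.8% and 34.1%. Without it the median difference over the 35 genes was -0.080, against -0.031 with all arrays. 13 probe sets of Y-linked genes, which female mice lack, lay between 2.77 and 5.37. The means of 7 members fell inside that range (Itgam, Tlr2, C3ar1, Itgb2, Ptprc, Spi1 and Gpr34), where RMA values understate differences. Defining microglial genes such as Csf1r, Cx3cr1, P2ry12 and Tmem119 were well above it.

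In the striatum of R6/2 mice, Cx3cl1, the gene for the neuronal ligand fractalkine, was 1.69-fold lower, and it was the only member whose difference passed the test. Among the 32 genes expressed by microglia none passed. The difference of the receptor gene Csf1r was -0.078 ± 0.090, that of P2ry12 0.028 ± 0.16 and that of Tmem119 -0.0038 ± 0.12 (log2, R6/2 minus wild-type, ± SE, n = 4 each). Closest to the threshold among the 32 were Fcrls, a receptor-like surface protein, at -1.08 ± 0.33, and Ctss, the lysosomal protease cathepsin S, at 0.40 ± 0.12. In bulk tissue, fewer cells of a type and less RNA per cell cannot be told apart.

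By limma over all 18193 genes, with p-values adjusted by Benjamini-Hochberg and a threshold of 0.05, 1 of the 35 members was called lower and 0 higher. Of all genes, 15.3% were called, 9.09% as higher and 6.19% as lower. An unadjusted p under 0.05 was reached by 6 of the 35 members (Cx3cl1, Cx3cr1, P2ry13, Fcrls, Tlr2 and Ctss), against 29.6% of all genes. For 2 members, Cx3cl1 and Fcrls, every R6/2 mouse was below every wild-type mouse; groups did not overlap for 19.4% of all genes, with R6/2 lower for 7.67%. The median difference over the 35 was -0.031, against -0.0034 over all genes, with 15 members above 0 and 20 below, where 49.3% of all genes were above 0. For 22 of the 35 the 95% interval of the difference lay within 0.5 of 0 (1.41-fold), and for 34 it lay within 1. The exception was Fcrls, whose interval ran from -1.81 to -0.35.

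**Figure D1:**
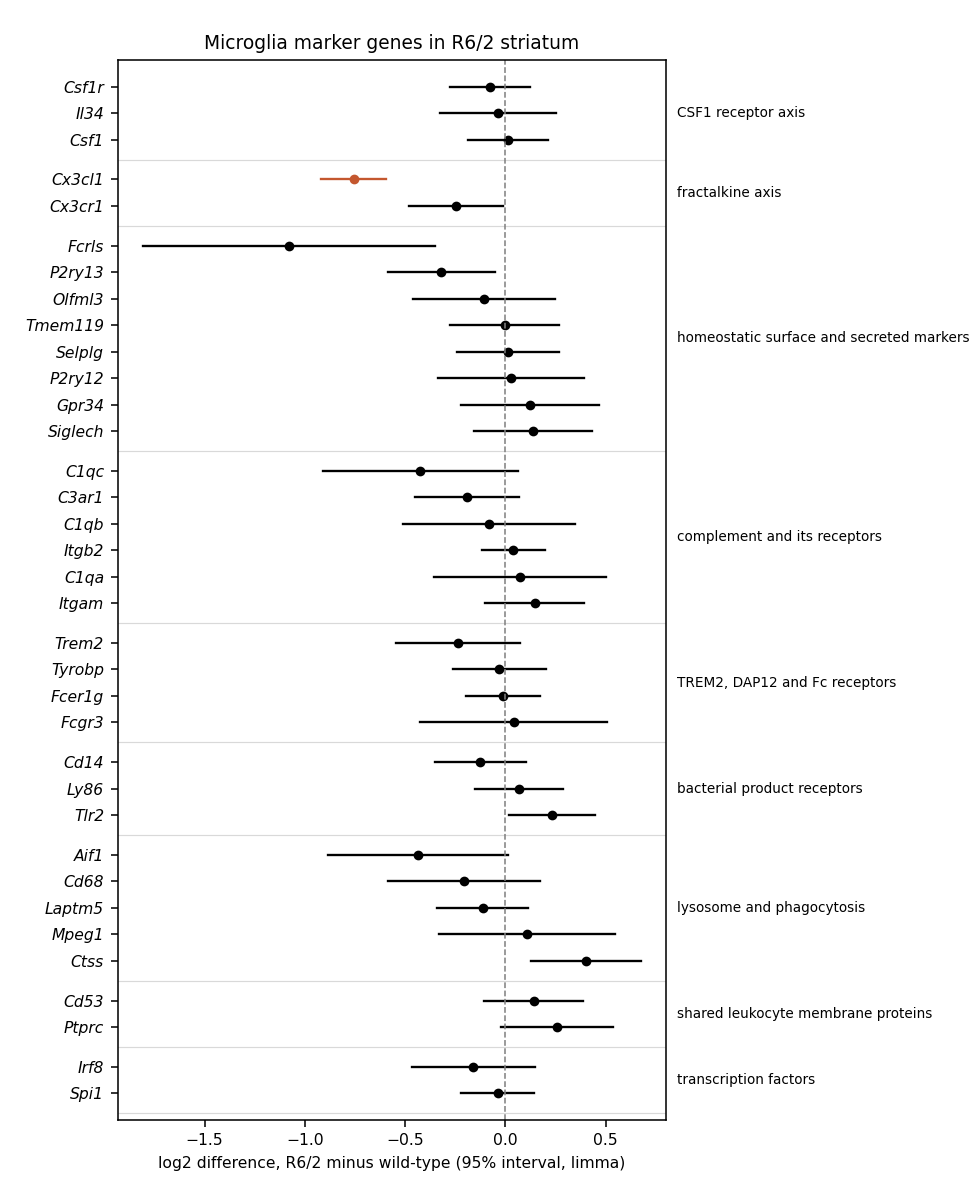
Log2 difference (R6/2 minus wild-type) of each of the 35 genes with its 95% interval from limma, in role groups; orange marks an adjusted p under 0.05. Cx3cl1 alone is orange, and most other intervals cross 0.

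The CSF1 receptor axis keeps microglia alive, and none of its 3 genes passed. In what follows, values are given in the order of wild-type mice 42, 48, 54 and 63 and of R6/2 mice 64, 65, 70 and 78. Csf1r, the receptor, lay at 10.77, 10.97, 10.79 and 10.81 in wild-type mice and at 10.92, 10.84, 10.58 and 10.68 in R6/2 mice. The groups overlapped, with R6/2 mice 70 and 78 below every wild-type mouse and R6/2 mouse 64 below wild-type mouse 48 only. Its difference was -0.078 ± 0.090 (adjusted p = 0.617), with an interval of -0.28 to 0.12, and its other 2 probe sets differed by -0.14 and -0.034. Csf1, one of the ligands, lay at 6.86, 6.62, 6.98 and 6.95 and at 6.86, 6.81, 6.97 and 6.83. The R6/2 values were inside the wild-type range, and the difference was 0.012 ± 0.090 (adjusted p = 0.950). Its second probe set differed in the other direction, by -0.21 ± 0.093 (adjusted p = 0.196). Il34, the ligand made by neurons, lay at 6.60, 6.80, 6.81 and 6.48 and at 6.90, 6.32, 6.80 and 6.51. Its spread was wider among R6/2 mice, which included both the highest and the lowest value, and the difference was -0.038 ± 0.13 (adjusted p = 0.882).

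Fractalkine signals from neurons to the receptor CX3CR1 on microglia. Cx3cl1, which encodes the ligand, lay at 11.27, 11.22, 11.22 and 11.13 in wild-type and at 10.57, 10.35, 10.44 and 10.46 in R6/2 mice. The 2 groups were separated by more than the spread within either. The means were 11.21 ± 0.056 and 10.45 ± 0.093 (SD, n = 4 each), and the difference was -0.76 ± 0.073 (SE, adjusted p = 0.000219). Each of its other 3 probe sets was called lower as well, with differences of -0.57 ± 0.13 (adjusted p = 0.0234), -0.63 ± 0.17 (adjusted p = 0.0454) and -0.63 ± 0.11 (adjusted p = 0.00766), where 10.1% of all 45037 probe sets were called, 5.54% as higher and 4.59% as lower. In the third of the 4 the groups overlapped, since wild-type mouse 42 at 5.49 lay below R6/2 mouse 70 at 5.57. With the per-array mean of cortical neuron genes as a covariate the gene's difference was -0.70 (adjusted p = 0.00617), and under that covariate 1 of the 4 probe sets was called. The called probe sets of Cx3cl1 numbered 2 without wild-type mouse 48 or 54 or without R6/2 mouse 65 or 78.

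Neuronal genes were lower in the same mice, where 6.19% of all genes were called lower and 9.09% higher. Of 18 measured genes of striatal projection neurons 16 were called lower and none higher, with a median of -0.91, and the mean deviation of the list from the wild-type mean lay between -0.22 and 0.11 for wild-type and between -0.83 and -0.80 for R6/2 mice. Of 14 genes of cortical projection neurons 3 were called lower, and that mean deviation lay between -0.58 and 0.27 for wild-type and between -0.998 and -0.13 for R6/2 mice. The part of projection neurons in the level of Cx3cl1 was not tested. The cortical covariate cannot separate it from genotype, since all 14 cortical genes had differences below 0. Cx3cr1, the microglial receptor, lay at 8.45, 8.75, 8.49 and 8.72 and at 8.51, 8.12, 8.35 and 8.44. R6/2 mouse 65 was lowest, and R6/2 mouse 64 lay above wild-type mice 42 and 54. Its difference of -0.25 ± 0.11 (adjusted p = 0.147) did not pass.

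**Figure D2:**
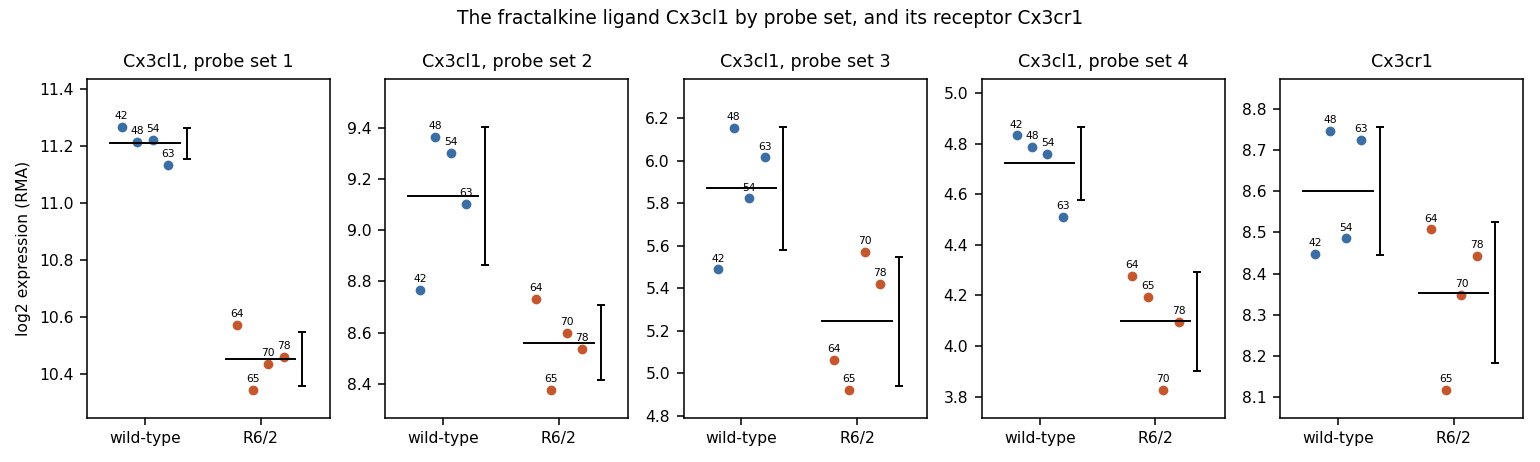
Log2 expression of the 4 probe sets of Cx3cl1, in order of mean level, and of Cx3cr1 in each numbered mouse; lines are group means and bars 1 SD (n = 4). The groups are apart in Cx3cl1 probe sets 1, 2 and 4 and overlap in probe set 3 and in Cx3cr1.

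None of the 8 homeostatic surface and secreted markers passed. Fcrls, an Fc receptor-like protein characteristic of microglia, lay at 6.90, 6.70, 7.57 and 7.31 and at 6.61, 5.07, 5.79 and 6.70. The lowest wild-type mouse and the highest R6/2 mouse, 48 and 78, were nearly equal, while R6/2 mouse 65 was far below the rest. The difference of -1.08 ± 0.33 (adjusted p = 0.0507) missed the threshold. It passed once R6/2 mouse 64 was left out (-1.27, adjusted p = 0.0428) or 78 (-1.30, adjusted p = 0.0343), and without R6/2 mouse 65 the difference was -0.76 (adjusted p = 0.0912). P2ry13, an ADP receptor, lay at 6.41, 6.55, 6.50 and 6.25 and at 6.42, 6.16, 6.004 and 5.84. R6/2 mice 65, 70 and 78 were below every wild-type mouse, and R6/2 mouse 64 was inside their range. Its difference was -0.32 ± 0.12 (adjusted p = 0.106), and it passed without R6/2 mouse 64 (adjusted p = 0.0343).

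The related ADP receptor gene P2ry12, which drives movement of microglial processes to sites of injury, lay at 6.75, 7.58, 7.08 and 7.37 and at 7.32, 6.95, 7.38 and 7.25. Wild-type mouse 42 was lowest and wild-type mouse 48 highest, so the R6/2 mice fell between them. The difference was 0.028 ± 0.16 (adjusted p = 0.933), with an interval of -0.33 to 0.39. Tmem119, a membrane protein used to tell microglia from other macrophages, lay at 7.30, 7.38, 7.03 and 7.24 and at 7.54, 7.14, 6.97 and 7.28, a difference of -0.0038 ± 0.12 (adjusted p = 0.988). R6/2 mice 64 and 70 were the highest and the lowest of all 8. Olfml3, a secreted matrix protein, lay at 7.60, 7.34, 7.58 and 7.81 and at 7.58, 7.58, 6.97 and 7.77. All but R6/2 mouse 70 were within the wild-type range, and the difference was -0.11 ± 0.16 (adjusted p = 0.705). Selplg, the P-selectin ligand, lay at 7.79, 7.34, 7.70 and 7.42 and at 7.76, 7.56, 7.40 and 7.57, inside the wild-type range. Its difference was 0.011 ± 0.12 (adjusted p = 0.963). The lectin gene Siglech differed by 0.14 ± 0.13 at a mean of 6.72, and the lysophospholipid receptor gene Gpr34 by 0.12 ± 0.16 at a mean of 5.29.

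The complement genes encode the 3 chains of C1q, which tags synapses and debris for removal, and receptors for complement fragments. None of the 6 passed. C1qa lay at 8.09, 8.82, 8.92 and 9.001 and at 9.07, 8.88, 8.48 and 8.68. C1qb lay at 7.003, 7.77, 7.59 and 7.70 and at 7.48, 7.76, 6.95 and 7.54. C1qc lay at 6.98, 7.77, 7.38 and 7.73 and at 7.01, 7.38, 6.45 and 7.32. In each of the 3 genes wild-type mouse 42 was the lowest wild-type animal and R6/2 mouse 70 the lowest R6/2 animal. The differences were 0.074 ± 0.19 (adjusted p = 0.839), -0.083 ± 0.19 (adjusted p = 0.818) and -0.42 ± 0.22 (adjusted p = 0.230). Without wild-type mouse 42, whose 3′ to 5′ signal stood apart, they were -0.13, -0.25 and -0.59 (adjusted p = 0.541, 0.340 and 0.0928). Without R6/2 mouse 70 they were 0.17, 0.077 and -0.23. Further probe sets of C1qb, at means of 7.23 and 7.18, differed by -0.22 ± 0.27 and -0.27 ± 0.22 (adjusted p = 0.665 and 0.504) with all arrays. The C3a receptor gene C3ar1 differed by -0.19 ± 0.12 at a mean of 4.55. Itgam and Itgb2, the 2 chains of complement receptor CR3, differed by 0.15 ± 0.11 and 0.039 ± 0.071, at means of 4.20 and 4.70, low values that overlap those of Y-linked genes.

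TREM2, a lipid-sensing receptor, signals through the adaptor DAP12, the product of Tyrobp, and neither gene passed. Trem2 lay at 5.59, 5.89, 5.89 and 6.29 and at 5.75, 5.43, 5.71 and 5.83. R6/2 mouse 65 was lowest and wild-type mouse 63 highest, and the difference was -0.24 ± 0.14 (adjusted p = 0.296). Tyrobp lay at 7.69, 7.98, 7.90 and 8.0 and at 8.05, 7.97, 7.71 and 7.71. Wild-type mouse 42 and R6/2 mice 70 and 78 were low to a similar degree, and the difference was -0.031 ± 0.10 (adjusted p = 0.877), with an interval of -0.26 to 0.20. Fcer1g, the adaptor chain shared by Fc receptors, differed by -0.012 ± 0.083 at a mean of 6.67. The IgG receptor gene Fcgr3 differed by 0.041 ± 0.21 at a mean of 7.12. The wild-type values of Fcgr3 ran from 6.43 to 7.64, wider than the R6/2 range.

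The receptors for bacterial products did not pass either. Tlr2, a Toll-like receptor for lipoproteins, lay at 4.36, 4.50, 4.17 and 4.45 and at 4.63, 4.56, 4.78 and 4.44, as low as Y-linked genes. R6/2 mice 64, 65 and 70 were above every wild-type mouse, and the difference was 0.23 ± 0.097 (adjusted p = 0.137). Ly86, which encodes the MD-1 partner of a Toll-like receptor relative, lay at 8.07, 8.28, 8.43 and 8.53 and at 8.47, 8.41, 8.37 and 8.34. Every R6/2 value was inside the wild-type range, and the difference was 0.069 ± 0.099 (adjusted p = 0.697). Cd14, a co-receptor for lipopolysaccharide, differed by -0.13 ± 0.10 at a mean of 5.43.

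Among the 5 genes of lysosome and phagocytosis, Ctss lay at 9.97, 9.95, 9.77 and 10.07 and at 10.48, 10.53, 9.96 and 10.40. R6/2 mice 64, 65 and 78 were above every wild-type mouse, and R6/2 mouse 70 was below wild-type mice 42 and 63. The difference of 0.40 ± 0.12 (adjusted p = 0.0516), 1.32-fold, narrowly missed the threshold. Without R6/2 mouse 70 it was 0.53 and passed (adjusted p = 0.00875), while without any other R6/2 mouse it was 0.34 to 0.38. Aif1, the calcium-binding protein IBA1 used to stain microglia, lay at 6.98, 6.05, 5.89 and 6.49 and at 5.86, 5.72, 6.10 and 5.99. Wild-type mouse 42 stood above the others, and R6/2 mice overlapped with wild-type mice 48 and 54. The difference was -0.44 ± 0.20 (adjusted p = 0.183), and without wild-type mouse 42 it was -0.23 (adjusted p = 0.337).

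Cd68, a lysosomal membrane protein of phagocytes, lay at 6.81, 6.45, 7.03 and 6.44 and at 6.83, 6.54, 6.47 and 6.07. R6/2 mouse 78 was lowest and the rest overlapped, with a difference of -0.21 ± 0.17 (adjusted p = 0.469). Laptm5, a lysosomal protein of blood-lineage cells, lay at 7.84, 7.70, 7.84 and 7.64 and at 7.75, 7.58, 7.40 and 7.84, a difference of -0.11 ± 0.10 (adjusted p = 0.505). R6/2 mice 65 and 70 were below the wild-type range. Mpeg1, which encodes the pore-forming protein perforin-2, differed by 0.11 ± 0.20 at a mean of 7.35. Its R6/2 values ran from 6.80 to 8.03, around a narrow wild-type range of 7.20 to 7.34.

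Both membrane proteins that microglia share with other leukocytes had values above 0 that did not pass: 0.26 ± 0.13 (adjusted p = 0.206) for Ptprc, the tyrosine phosphatase CD45, at a mean of 4.84, and 0.14 ± 0.11 (adjusted p = 0.448) for the tetraspanin gene Cd53 at a mean of 6.87. Of the transcription factors that set the macrophage programme, Spi1 differed by -0.038 ± 0.083 (adjusted p = 0.804) at a mean of 5.08 and Irf8 by -0.16 ± 0.14 (adjusted p = 0.491) at a mean of 5.77. A second probe set of Irf8 differed by -0.29 ± 0.090 (adjusted p = 0.0718), with an unadjusted p of 0.00929.

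**Figure D3:**
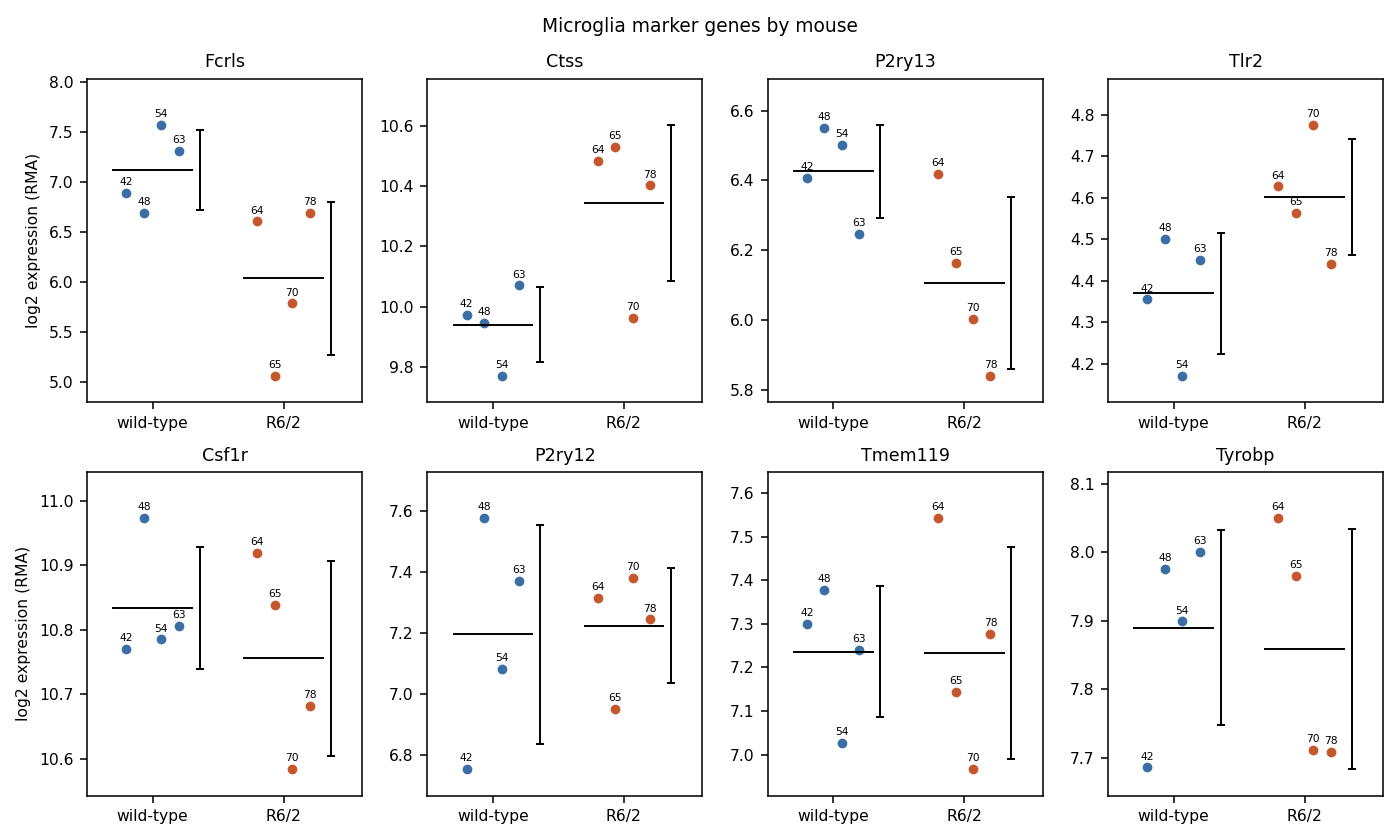
Log2 expression of 8 members in each numbered mouse, with group means (lines) and 1 SD (bars, n = 4). The R6/2 values of Fcrls and Ctss are mostly displaced from wild-type, while Csf1r, P2ry12, Tmem119 and Tyrobp overlap.

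The 32 genes expressed by microglia varied between mice of 1 genotype. R6/2 mouse 70 held the lowest R6/2 value for 15 of the 32 and R6/2 mouse 64 the highest for 15, whereas over all 18193 genes these mice held that place for 20.8% and 35.4%. R6/2 mouse 64 was lowest for 2 of the 32. The mean deviation of the 32 from the wild-type mean was 0.069, -0.072, -0.20 and -0.063 in R6/2 mice 64, 65, 70 and 78, and it lay between -0.061 and 0.064 in wild-type mice. R6/2 mice 65 and 78 lay just below the wild-type range, mouse 64 just above it and mouse 70 furthest below it. The lower end of that range was wild-type mouse 42, and the next wild-type value was -0.0047, in mouse 48. Among wild-type mice, mouse 42 was lowest for 11 of the 32, against 26.8% of all genes.

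With the cortical covariate in the fit, the differences of 16 of the 35 genes lay further from 0 and those of 19 lay nearer. Cx3cl1 remained the only one called, where 6.53% of all genes were called. The difference of Fcgr3 went from 0.041 to 0.53 (adjusted p = 0.140), that of Tlr2 from 0.23 to 0.38, that of C1qc from -0.42 to -0.60 and that of C1qb from -0.083 to -0.28. That of Aif1 went from -0.44 to -0.095, that of Cx3cr1 from -0.25 to -0.10 and that of Ptprc from 0.26 to 0.076.

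**Figure D4:**
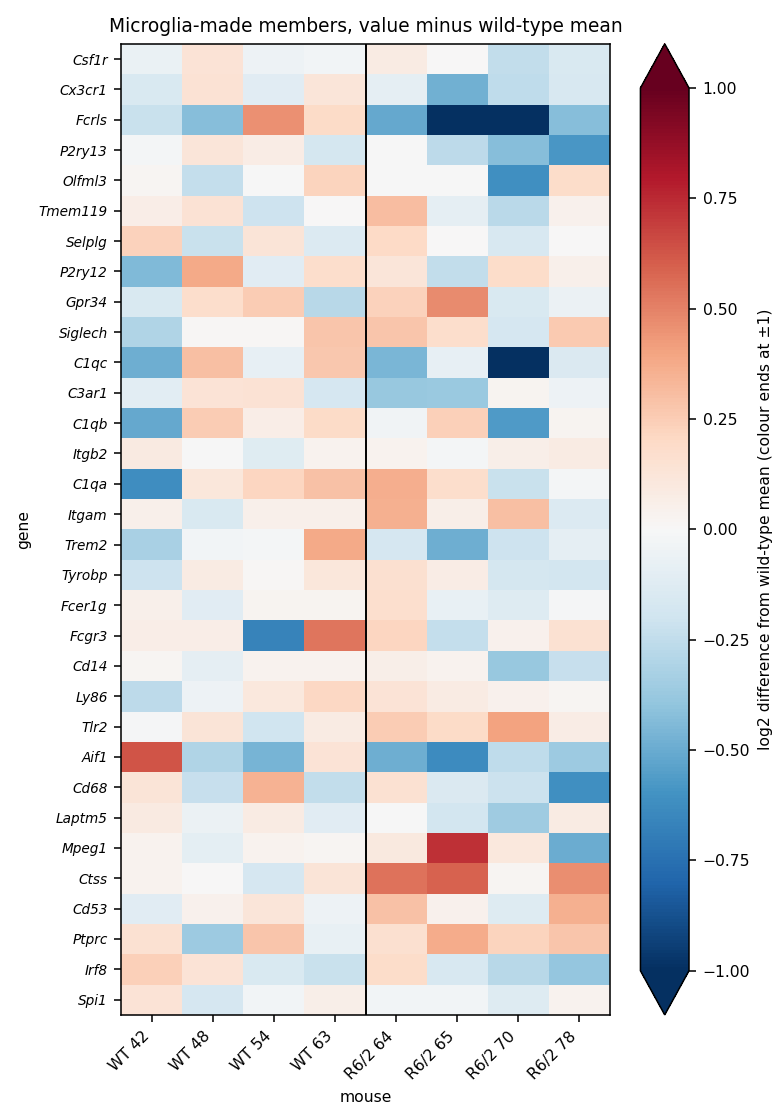
Value minus wild-type mean (log2, colour) of the 32 genes expressed by microglia in each of the 8 mice, in role groups. Blue cells are frequent in the column of R6/2 mouse 70, and Ctss is red in R6/2 mice 64, 65 and 78.

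Of the 35 genes 11 had more than 1 probe set. Of their 21 other probe sets 5 had the opposite sign, in Csf1, C3ar1, Cd53 and Laptm5, and none of these 5 was called. The remaining 16 had the same sign, and the 3 that were called belonged to Cx3cl1.

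Other genes of microglia were examined from lists drawn up by function, with earlier results of these data known. Of 34 further microglia genes 2 were called higher and 1 lower, with a median of -0.022, where 9.09% of all genes were called higher and 6.19% lower. Of the 34, 19 had a mean above 5.37, the highest value of a Y-linked gene. Csf2ra, a receptor subunit for the growth factor GM-CSF, rose from 8.09 ± 0.13 to 8.64 ± 0.16, by 0.55 ± 0.100 (adjusted p = 0.00538). The call was lost with the cortical covariate (0.35, adjusted p = 0.0848). A dimmer probe set of Csf2ra gave 0.24 ± 0.17 (adjusted p = 0.424). Lcp1, the actin-bundling protein L-plastin, rose by 0.42 ± 0.092 (adjusted p = 0.0132), while the value from a dimmer probe set was -0.022 ± 0.086 (adjusted p = 0.905). The call of Lcp1 was lost with the mean of its probe sets (0.20, adjusted p = 0.0903), without moderation (0.0508) and with the cortical covariate (0.0889). Fcgr2b, the inhibitory IgG receptor, was lower in its brightest probe set, at -0.38 ± 0.083 (adjusted p = 0.0129). The differences of its other 4 probe sets lay above 0, between 0.16 and 0.20, and none of them was called. With the mean of all 5 the difference was 0.075 (adjusted p = 0.511).

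Among 28 genes that microglia raise in reactive states, 2 were called higher and 1 lower, with a median of -0.00074. Of all genes, 9.09% were called higher and 6.19% lower. Only 8 of the 28 had a mean above 5.37, the highest value of a Y-linked gene, so low signal limits this median. Both genes called higher encode lysosomal proteases, which neurons and other cells also express. Ctsl, cathepsin L, lay at 9.53, 9.59, 9.39 and 9.88 and at 10.04, 10.26, 10.15 and 10.23, a difference of 0.57 ± 0.11 (adjusted p = 0.00566). Every R6/2 mouse was above every wild-type mouse. A far dimmer probe set of Ctsl, with mean 4.004, gave -0.032 (adjusted p = 0.922). Ctsz, cathepsin Z, lay at 8.84, 8.97, 8.87 and 8.87 and at 9.34, 9.42, 9.14 and 9.24, a difference of 0.40 ± 0.078 (adjusted p = 0.00806). Here too the groups were apart, but the call was lost with the cortical covariate (adjusted p = 0.076). Dimmer probe sets of Ctsz gave 0.30 (adjusted p = 0.0235), called higher, and 0.17 (adjusted p = 0.209), not called. The integrin gene Itgax fell by 0.31 ± 0.086 (adjusted p = 0.0351) at a mean of 4.37, a call lost when wild-type mouse 42, 54 or 63, or R6/2 mouse 64, 65 or 78, was left out (adjusted p = 0.0556 to 0.0889). That call was also lost with array weights (0.0501), without moderation (0.0753) and with the cortical covariate (0.286). The cytokine genes Il1b and Tnf differed by 0.0050 ± 0.10 and -0.12 ± 0.076, at means of 4.25 and 4.80, as low as Y-linked genes. The lipoprotein gene Apoe differed by -0.082 ± 0.11, and these 3 genes were named after their values were seen. They do not stand for the list. Its 28 differences ran from -0.43 to 0.57, with 14 above 0 and 14 below, and 7 genes had an unadjusted p under 0.05 by limma.

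Of all genes 15.3% were called, and the signalling and complement lists are too short to set apart from that share. Of 12 kinases, adaptors and phosphatases acting after DAP12 and CSF1R none was called or had an unadjusted p under 0.05, including the phosphatase gene Inpp5d (-0.069 ± 0.095) and the kinase gene Pik3cd (0.43 ± 0.31). Of 11 other complement genes 1 was called. Cfp, which encodes properdin, the stabiliser of the alternative pathway, lay at 8.47, 8.23, 7.93 and 7.92 and at 7.10, 7.28, 7.40 and 7.27. The groups were well apart, with a 1.83-fold fall of 0.87 ± 0.13 (adjusted p = 0.00174), and its other probe set was also called lower, at -0.47 ± 0.090 (adjusted p = 0.0107). Of 15 other genes of the Toll-like receptor pathway 1 was called, Nfkbia, the inhibitor of NF-kappa B, which many cell types express. It rose by 0.44 ± 0.11 (adjusted p = 0.0206). That call was lost without wild-type mouse 54 (adjusted p = 0.0532) or R6/2 mouse 65 (0.0511) or 70 (0.0611). The call was also lost with the cortical covariate (0.122) and without moderation (0.0791). Another probe set of Nfkbia was called higher, at 0.44 ± 0.092 (adjusted p = 0.0152). Others, not called, gave 0.39 and 0.33 (adjusted p = 0.0928 and 0.103), and the dimmest gave -0.077 (adjusted p = 0.686).

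Lists of other cell types were set beside the microglial genes. Of 10 genes of border macrophages, which share many microglial genes, none was called, 1 had an unadjusted p under 0.05, and none had a mean above 5.37. By limma 15.3% of all genes were called and 29.6% had an unadjusted p under 0.05. A list of 10 is too short to set apart from these shares. The means of Siglec1 and Cd209f were highest, with differences of -0.32 ± 0.12 (adjusted p = 0.0962) and -0.063 ± 0.089. The mean deviation of these 10 lay between -0.060 and 0.045 for wild-type and between -0.13 and -0.039 for R6/2 mice, and their part in the microglial values was not tested. Among other glial and vascular genes, 6 of 15 astrocyte, 3 of 13 oligodendrocyte, 0 of 8 oligodendrocyte progenitor and 4 of 14 endothelial and mural genes were called lower, and none was called higher. The medians of these 4 lists were -0.29, -0.22, -0.041 and -0.090. For comparison, 6.19% of all genes were called lower and 9.09% higher. With only 8 progenitor genes, a count of 0 cannot be set apart from these shares. Of 12 choroid plexus and ependymal genes 1 was called higher and 1 lower, with a median of 0.52. No test compared these lists with the microglial genes.

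**Figure D5:**
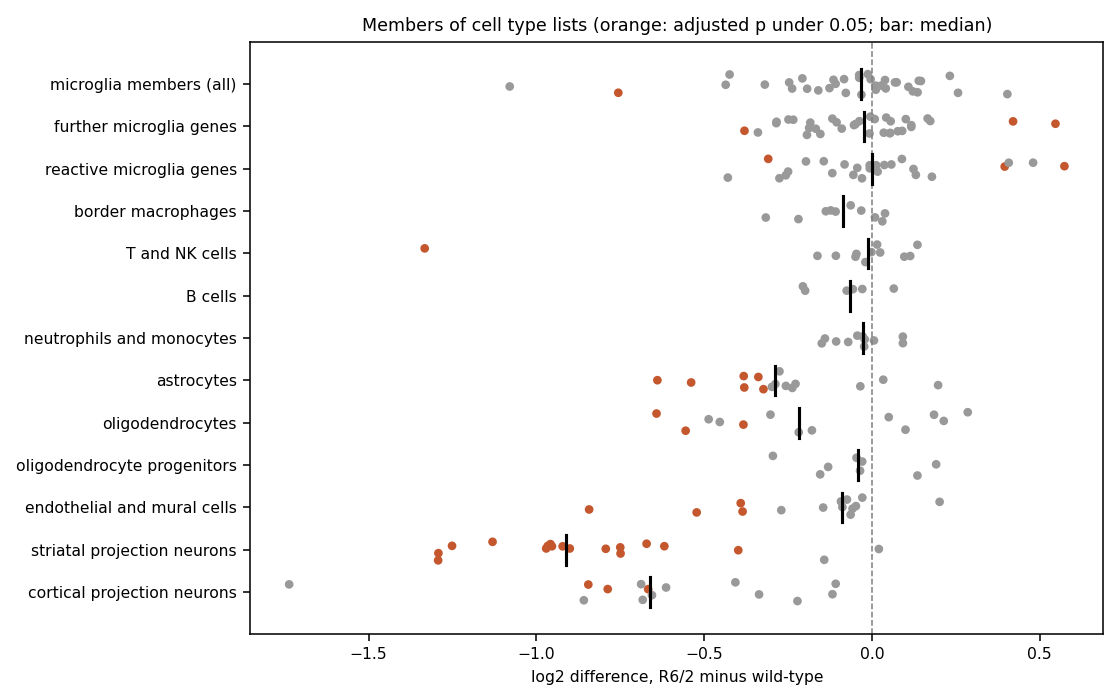
Log2 difference (R6/2 minus wild-type) of each measured gene of 13 cell type lists, 1 point per gene; orange marks an adjusted p under 0.05 and the bar is the list's median. Microglial lists are centred near 0, with medians of -0.031, -0.022 and -0.00074, and the striatal projection neuron list at -0.91. In the reactive microglia list only 8 of 28 genes had a mean above 5.37, the highest value of a Y-linked gene.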

How the data were processed

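Biotin-labelled striatal RNA from each mouse was hybridised to its own Affymetrix array, according to the labels. The authors deposited log2 expression values per probe set, for which the submitters' processing notes list RMA and affy; versions, and which arrays were normalized together, are not given in the sources used here. Of 45101 probe sets, 64 controls were left out. Symbols from the platform annotation were updated through Entrez IDs to RefSeq (GRCm38.p6). Exactly 1 symbol belonged to 34945 probe sets, while 932 with several symbols and 9160 unlisted ones stayed unnamed.

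Groups came from the sample titles. Each animal has a number of its own, so p-values measure the spread between animals. The fit over all 18193 genes used limma 3.58.1 (lmFit, then eBayes) under R 4.3.3 with 8 arrays. Its code was also run on simulated data with independent noise for each gene, which does not test effects shared by the genes of an array. A second fit took all probe sets. The members and gene lists were chosen with earlier results of these data known, and so was the promoter motif, after several were searched. Values on every array are given for members with an unadjusted p under 0.05, the 10 of highest mean and a fixed set of known markers. From other microglial and immune lists up to 4 called genes are named, or up to 2 of highest mean where none was called, and from other brain cells only counts. The cortical covariate is the per-array mean of 14 cortical projection neuron genes. All 14 had differences below 0, so it is correlated with genotype. Where a call is lost with it, genotype and cortical content cannot be told apart. RMA summarises probes by median polish, and 10 members had equal values on 2 or more arrays, as did 36.9% of genes. Alternatives changed the normalization (quantile, median centring), the genes tested (dimmest 40% left out), the probe sets (averaged, or none ending in _s_at or _x_at), the moderation (intensity trend and robust, or none), the array weights, the covariate and the mice included (each left out in turn). Figures were drawn with matplotlib 3.10.9.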

Additional observations from a re-analysis of the deposited data

Results flagged for a closer look

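Each member's 4 values per genotype were checked for a lone mouse whose gap to the nearest other mouse took up most of the group's range (above Dixon's 95% critical value). Of 70 groups 4 had such a mouse, where chance gives about 1 in 20, or 3.5. All 4 were wild-type mouse 48 at the low end. Itgam was 3.98 in that mouse, while the other 3 wild-type mice had the same value of 4.18. Fcer1g was 6.57 in that mouse, against 6.70 to 6.73 in the other 3 wild-type mice. Cd14 was 5.40 in that mouse, against 5.51 to 5.52 in the other 3 wild-type mice. Mpeg1 was 7.20 in that mouse, against 7.32 to 7.34 in the other 3 wild-type mice. In each of these 4 genes some of the other wild-type mice had equal values. The rate of 1 in 20 assumes values without such ties, so 3.5 is only a rough guide here.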

How the results depend on the processing

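Cx3cl1 was called lower under all 17 alternatives, with differences of -0.80 to -0.65 and an adjusted p of at most 0.00617. The members called numbered 1 with all arrays and as deposited. They numbered 3 (2 lower, 1 higher) after quantile normalization and without the dimmest 40% of genes (Fcrls and Ctss added), and 2 with the mean of all probe sets or an intensity trend (1 higher, Ctss) and with array weights (2 lower, P2ry13 added). The share of all genes called was 15.5% after quantile normalization and 27.3% without the dimmest 40%, where 29 members were tested. It was 14.7% with the mean of all probe sets, 16.2% with an intensity trend and 20.2% with array weights. Leaving out 1 mouse gave 1 to 3 members called, 1 to 3 lower and 0 to 1 higher, against 9.24% to 14% of all genes. The adjusted p of Ctss ranged from 0.00875 to 0.147 over the alternatives and that of Fcrls from 0.0343 to 0.258. Of all 56 member probe sets, 1 was called without moderation and 1 with the cortical covariate, both of Cx3cl1, and 2 to 4 without 1 mouse (the cause was not tested). A probe set of another member, Ctss, was called with the intensity trend and without R6/2 mouse 70. All genes called were 1399 without moderation (819 higher, 580 lower), 1188 with the cortical covariate (709 higher, 479 lower), and 1681 to 2543 without 1 mouse (923 to 1579 higher, 758 to 1122 lower), fewest without R6/2 mouse 70. The median over the members ranged from -0.095 to 0.018, the highest without R6/2 mouse 70.

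Members that changed sign under some settings were called neither as deposited nor there, while Fcgr2b, called lower at -0.38, turned positive and lost its call with the mean of all its probe sets. After quantile normalization, Csf1 was -0.025, P2ry12 was -0.013 and Selplg was -0.019. After median centring, Tmem119 was 0.0087 and Fcer1g was 0.00034. With the mean of all probe sets, Csf1 was -0.017 and Fcgr2b was 0.075. Without _s_at and _x_at probe sets, Laptm5 was 0.048. With array weights, P2ry12 was -0.048, Gpr34 was -0.027, C1qa was -0.029, Fcer1g was 0.020 and Spi1 was 0.017. With the cortical covariate, Csf1 was -0.011, Il34 was 0.072, Gpr34 was -0.093, Tmem119 was 0.20, C1qa was -0.0069, Fcer1g was 0.055 and Irf8 was 0.055. Leaving out 1 mouse at a time moved Csf1 from -0.066 to 0.055, Il34 from -0.13 to 0.065, P2ry12 from -0.12 to 0.15, Tmem119 from -0.11 to 0.085, Olfml3 from -0.21 to 0.059, Selplg from -0.062 to 0.087, C1qa from -0.13 to 0.17, C1qb from -0.25 to 0.077, Itgb2 from -0.00064 to 0.069, Tyrobp from -0.100 to 0.019, Fcer1g from -0.073 to 0.027, Fcgr3 from -0.18 to 0.22, Ly86 from -0.018 to 0.14, Mpeg1 from -0.098 to 0.31 and Spi1 from -0.095 to 0.0078. Of the other 17 members, 12 kept their sign under all 17 alternatives and 5 (C3ar1, Itgam, Tlr2, Aif1 and Ptprc) under the 16 in which they were tested; Aif1, whose probe set ends in _s_at, was not tested without such probe sets. No paired analysis was possible because the genotypes share no mouse numbers. The number of arrays limits every value, and 6 members are among the dimmest 40% of genes and were not tested in that setting.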

Other observations

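The lists of blood leukocyte genes are short beside the 15.3% of all genes that were called. None of 6 B cell genes or 11 neutrophil and monocyte genes was called, and of these only the chemokine receptor gene Ccr2 had a mean above 5.37. The brightest B cell genes, Cd22 and Cd79a, differed by -0.057 ± 0.11 and -0.21 ± 0.14, and the brightest of the other list, Ccr2 and the protease gene Elane, by 0.092 ± 0.085 and 0.0061 ± 0.10. Among 12 T and NK cell genes Cd4 was called lower. It lay at 8.82, 8.78, 8.81 and 8.29 in wild-type mice 42, 48, 54 and 63 and at 7.39, 7.59, 6.96 and 7.44 in R6/2 mice 64, 65, 70 and 78, a 2.52-fold difference of -1.33 ± 0.15 (adjusted p = 0.000539). The T cell receptor genes Cd3d, Cd3e and Cd3g differed by 0.015 ± 0.077, 0.14 ± 0.11 and -0.019 ± 0.069, and Cd8a by -0.0015 ± 0.096, with none called. These 4 were named after their values were seen. Their means were 4.32, 5.45, 3.41 and 5.03, and only that of Cd3e was above 5.37, so their values say little about T cells. A dimmer probe set of Cd4, with mean 4.83, gave -0.44 ± 0.17 (adjusted p = 0.127). The erythroid gene Alas2 fell by 0.49 ± 0.13 (adjusted p = 0.0263) at a mean of 4.66, a call lost when wild-type mouse 42 or 48, or R6/2 mouse 65, 70 or 78, was left out (adjusted p = 0.0533 to 0.0772), with the cortical covariate (0.357) and without moderation (0.102).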
